A study of Mus musculus with 4 samples.

Results

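Neutrophil and calprotectin genes were followed through 4 arrays of mouse small intestine. The 7 genes were S100a8, S100a9, Lcn2, Ngp, Csf3r, Csf3 and Retnlg, taken by gene name from the 37325 gene names on the array. They were represented by 8 of the 56605 non-control probes, since Lcn2 had 2 probes. The probes were found by gene name alone, and the genes themselves were picked with earlier results of these arrays known. All mice were on the C57BL/6J background, were 9 weeks old and were Tcrbd-/-, that is, lacking the genes for the beta and delta chains of the T cell receptor. The mice were either DAOwt/wt (wild-type below) or DAOG181R/G181R (G181R below), the latter with the G181R form of D-amino acid oxidase on both gene copies. The design sets these genotypes against each other in jejunum and in ileum. The epithelium of each tissue was scraped off mechanically, and total RNA of 5 mice was mixed into 1 sample for each of the 4 groups. Each group was therefore 1 array, with no replicate, and no p-value and no error between mice could be computed.

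Calprotectin is the pair of S100a8 and S100a9, small calcium-binding proteins that fill the cytosol of neutrophils and are used as a stool marker of intestinal inflammation. Lcn2 encodes lipocalin 2, which binds bacterial siderophores and so keeps iron from bacteria. It is made both by neutrophils and by inflamed epithelium. Csf3 encodes the cytokine G-CSF, which drives the production and release of neutrophils, and Csf3r encodes its receptor. Ngp is a granule protein of maturing neutrophils, and Retnlg is a resistin-like secreted protein made by myeloid cells.

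A value on these arrays is the brightness of 1 probe of 60 bases, and what each probe reads depends on its letters. The probes for the genes below are shown because the results turn on which transcript each one reads. They are printed 5′ to 3′ from the scanner files, 3 of them whole and the others as a stretch of 30 bases. The only capitals are in the Csf3r probe, and they mark its last 18 bases. Exact runs of 14 bases there recur around the start of at least 10 other genes. Lower case does not mean that a base is unique to the gene.
S100a8, whole probe: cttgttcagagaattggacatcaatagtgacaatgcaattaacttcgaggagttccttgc
S100a9, bases 1 to 30: gtctaaagggaatggcttactcaatggcct
Lcn2, dimmer probe, whole: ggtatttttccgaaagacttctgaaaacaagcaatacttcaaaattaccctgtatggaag
Lcn2, brighter probe, bases 1 to 30: aaggagcatctggagcctcttcttatttgg
Ngp, whole probe: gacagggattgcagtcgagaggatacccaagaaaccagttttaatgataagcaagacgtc
Csf3r, bases 31 to 60: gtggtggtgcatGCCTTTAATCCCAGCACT
Csf3, bases 1 to 30: gggggacaagacatccctgtttaatattta
Retnlg, bases 1 to 30: gctgagaacctagctttgaaatgaagacta

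The probe positions are those of the mm9 build, as the scanner files give them. The S100a8 probe lies at chr3:90473778-90473837 on the plus strand, and the S100a9 probe at chr3:90496573-90496632 on the minus strand. Both Lcn2 probes are on the minus strand of chromosome 2, the brighter at chr2:32240199-32240258 and the dimmer at chr2:32241037-32241281. The Ngp probe lies at chr9:110324266-110324814, the Csf3r probe at chr4:125721478-125721537, the Csf3 probe at chr11:98564614-98564673 and the Retnlg probe at chr16:48874468-48874527, all on the plus strand. The spans of the dimmer Lcn2 probe and of the Ngp probe are longer than the probe itself, so these probes cross a splice junction. Exon and UTR annotation of mm9 was not used here.

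Between 57.4% and 60.4% of the probes were well above background on each array, and no spot was saturated. Signals below are the processed signals of the scanner software after its background subtraction, in arbitrary units, each with the error that the software gives for the spot. Levels are log2 signals relative to the 75th percentile of the array, and differences are differences of these levels. The 4 arrays were on 1 slide and share 1 scan time. The 300 probes printed 10 times had a median SD of 0.0396 to 0.0437 for the log2 difference of 2 arrays. For the 9 to 10 of them with signals between 10 and 100, where the brighter Lcn2 probe and the Retnlg probe lie on all 4 arrays, the median SD was 0.161 to 0.194 and the highest 0.344. This error covers the spots of 1 hybridisation only. All 10 epithelial markers checked, such as Epcam, Vil1 and Krt20, were well above background on all 4 arrays, and 9 to 10 of the 10 smooth muscle markers were too, so the scraped tissue held more than epithelium.

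S100a9 was seen on the G181R ileum array and on no other. Its processed signal was 1.73 ± 1.74 in wild-type jejunum, 1.34 ± 1.35 in G181R jejunum, 1.67 ± 1.67 in wild-type ileum and 96.8 ± 9.78 in G181R ileum. The first 3 are stand-in values that the software writes where the signal is not above background. Before any background subtraction the spot in G181R ileum had a mean of 116.3 over a local background of 23, whereas the other 3 spots had means of 22.5 to 29.2 over local backgrounds of 22 to 23. Measured against the lowest signal that counted as well above background in wild-type ileum (7.20), S100a9 was at least 14.2-fold higher in G181R ileum, a log2 difference of at least 3.83. More cells holding the transcript and more transcript per cell cannot be told apart in tissue RNA, for this gene or the others.

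S100a8, the partner of S100a9 in calprotectin, was likewise well above background in G181R ileum alone. Its processed signal was 1.46 ± 1.47 and 1.16 ± 1.16 in wild-type and G181R jejunum, 1.49 ± 1.45 in wild-type ileum and 24.4 ± 2.73 in G181R ileum. Only the last was well above background. The spot in wild-type ileum was no stand-in and passed a weaker flag of the software, for a positive and significant signal. The spot mean before subtraction was 51.1 over a local background of 26 in G181R ileum and 20.4 to 25.3 over 24 to 26 on the other arrays. S100a8 was at least 3.58-fold higher in G181R than in wild-type ileum, a log2 difference of at least 1.84. With another background correction (normexp with an offset of 50, which pulls dim signals together) the bound for S100a8 was 0.52 and no longer 2-fold, and that for S100a9 was 1.38.

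On the brighter of its probes Lcn2 was visible in all 4 groups, and the low one was wild-type ileum. This probe read 79.1 ± 8.06 in wild-type jejunum, 89.0 ± 8.98 in G181R jejunum, 34.9 ± 3.79 in wild-type ileum and 93.7 ± 9.45 in G181R ileum. In ileum this was a 2.83-fold higher signal in G181R, a log2 difference of 1.5, beyond the highest SD between dim replicate spots (0.239 in this comparison). In jejunum the difference was 0.14 on the log2 scale, within the median SD of dim replicate spots (0.172). Under normexp the ileum difference was 0.80, below 2-fold, and the jejunum difference 0.06. With the Lcn2 probes averaged, dim signals included, they were 1.59 and 1.07, so that both passed 2-fold. The jejunum value takes in a stand-in signal of the dimmer probe in wild-type jejunum.

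The dimmer Lcn2 probe was well above background on both G181R arrays and on neither wild-type array. Its processed signal was 1.75 ± 1.75 in wild-type jejunum, 7.16 ± 1.52 in G181R jejunum, 6.91 ± 1.81 in wild-type ileum and 20.9 ± 2.52 in G181R ileum. The value in wild-type jejunum is a stand-in written by the software. In ileum it gave a signal at least 3.06-fold higher in G181R, the direction and about the size of the brighter probe. In jejunum the G181R signal lay below the lowest signal well above background on the wild-type array (7.36), so no fold could be given. The probes disagreed on the tissues: between the G181R arrays the dimmer probe was 2.66-fold brighter in ileum than in jejunum, and the brighter probe was 1.04-fold dimmer.

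**Figure D1:**
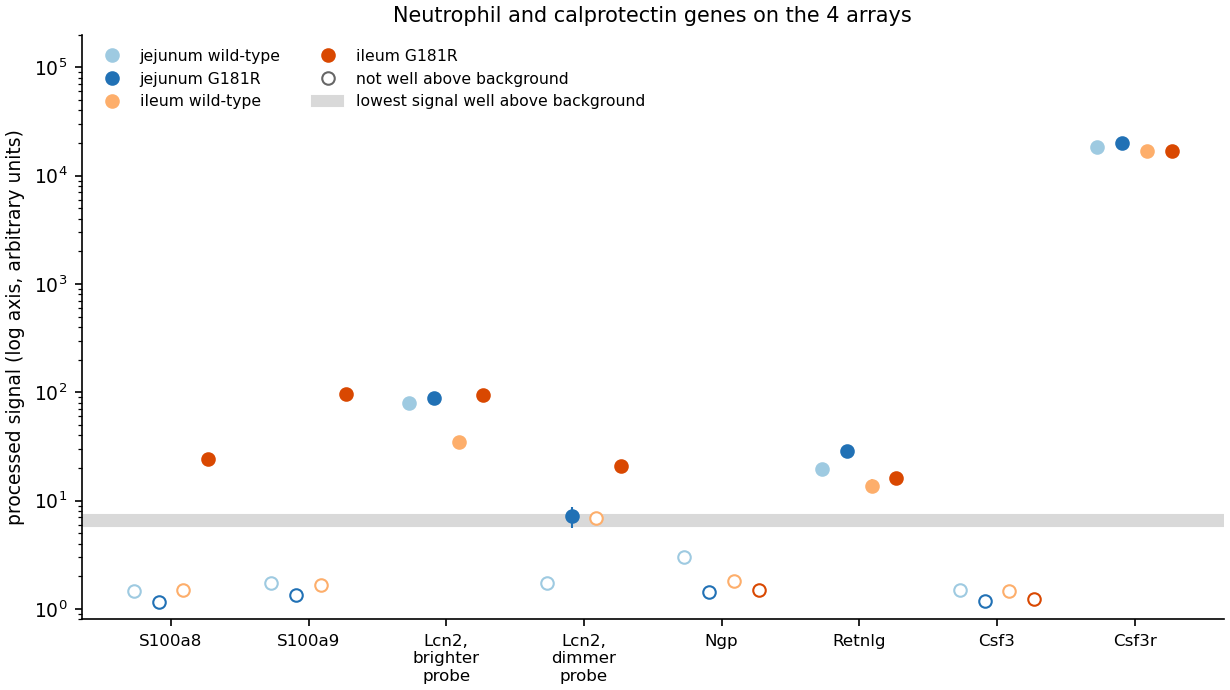
Processed signal (log axis, arbitrary units) of each of the 8 probes on the 4 arrays; filled points were well above background, open points were not, vertical lines are the software's signal error and the grey band spans the lowest signals well above background (5.83 to 7.36). S100a8 and S100a9 have a filled point in G181R ileum alone, Lcn2 is lowest in wild-type ileum on its brighter probe, and Csf3r lies between 16746 and 19855 on every array.

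Retnlg was dim and well above background on all 4 arrays. Its processed signal was 19.4 ± 2.56 in wild-type and 28.6 ± 3.13 in G181R jejunum, and 13.8 ± 2.11 in wild-type and 16.1 ± 2.09 in G181R ileum. The signals were higher in jejunum than in ileum, and within each tissue slightly higher in G181R. The log2 difference was 0.52 in jejunum, past the highest SD of dim replicate spots (0.321), and 0.30 in ileum; neither reached 2-fold, and under normexp they were 0.13 and 0.09. Unlike S100a8 and S100a9, Retnlg was thus not brightest in G181R ileum.

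Ngp was not well above background on any array. It read 3.01 ± 1.90 in wild-type jejunum, 1.44 ± 1.44 in G181R jejunum, 1.80 ± 1.80 in wild-type ileum and 1.48 ± 1.49 in G181R ileum. Only the first of these passed the weaker flag of the software for a positive and significant signal. Csf3 was not well above background on any array either, with 1.49 ± 1.49 and 1.18 ± 1.18 in wild-type and G181R jejunum, and 1.45 ± 1.46 and 1.23 ± 1.23 in wild-type and G181R ileum. No fold is given for these genes.

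The Csf3r probe was bright on every array. It read 18449 ± 1840 in wild-type jejunum, 19855 ± 1990 in G181R jejunum, 16761 ± 1680 in wild-type ileum and 16746 ± 1670 in G181R ileum, and its mean level ranked 583 of the 56605 probes. The genotype difference was 0.07 in jejunum and 0.08 in ileum on the log2 scale, and the difference of these was 0.00.

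The last 18 bases of the Csf3r probe, shown in capitals above, match part of the B1 family of short interspersed repeats, which is copied throughout the mouse genome. The capitals show only what exact matching of 14-base runs found. How far the repeat extends into the bases before them was not tested. Windows around the transcription start (250 bases before to 50 after) were searched on either strand. The most shared run of 14 bases from the last 18 bases was found in those of 17 other genes. For each of the other 7 probes the most shared run was found in the windows of 1 to 2 other genes. Among all probes, 1736 (3.07%) had such a run in the windows of at least 10 other genes. Of these, 75.3% were well above background on all 4 arrays, against 54.0% of all probes, and their median processed signal in wild-type ileum was 122 against 18.1. The 8 probes of other genes that share at least 14 bases in a row of these 18 on the same strand had a median signal of 269 in wild-type ileum (8.24 to 97665). The 5 that share such a run on the opposite strand had a median of 7.06. Whether transcripts holding this repeat contribute to the Csf3r signal was not tested, and the level of Csf3r is given here as that of the probe.

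**Figure D2:**
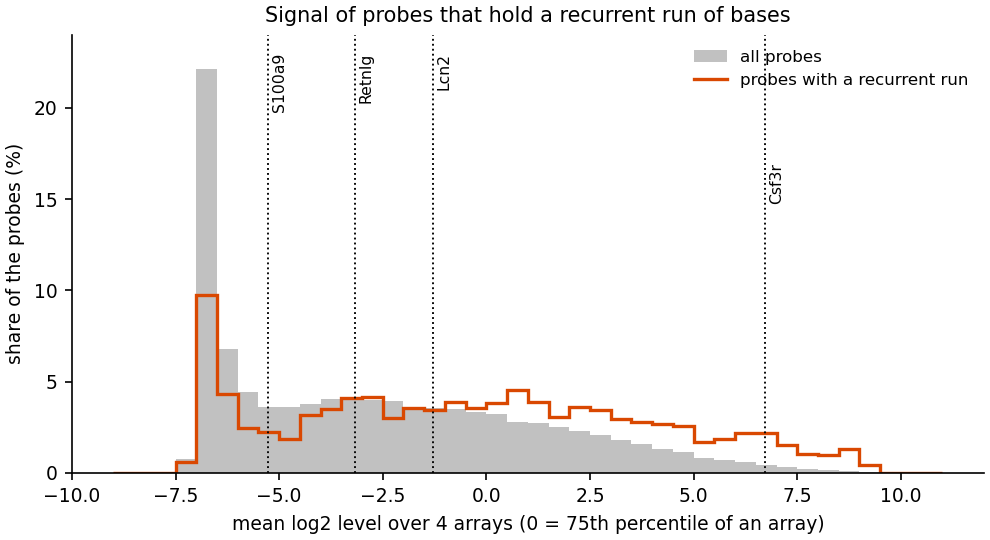
Share of probes (%) by mean log2 level over the 4 arrays, with 0 at the 75th percentile of an array, for all 56605 probes (grey) and for the 1736 probes with a run of 14 bases found around the start of at least 10 other genes (orange outline); dotted lines mark 4 of the genes by their brightest probe. The orange outline lies to the right of the grey, and the Csf3r probe lies in the far right tail.

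Between genotypes in ileum, 5 of the 7 genes were well above background on at least 1 array. Of these, 3 were at least 2-fold higher in G181R (S100a9, S100a8 and Lcn2, the first 2 by their bounds), where 2.44% of all genes were (570 of 23379), and 0 were lower, where 3.98% were. S100a8 and S100a9 entered this count only through their signal in G181R ileum, so they could not have counted as lower. Of the members measured on both ileum arrays, 1 of 3 was higher (Lcn2), where 2% of all genes were. Between genotypes in jejunum, 0 of 3 member genes were at least 2-fold higher, where 1.13% of all genes were, and 0 of 3 were lower, where 1.43% were. With probes averaged 1 member (Lcn2) was higher in jejunum, by a value that takes in a stand-in signal. With 7 genes, these counts describe single genes and no share of a class.

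On its brighter probe the genotype difference of Lcn2 was larger in ileum than in jejunum by 1.37 on the log2 scale, which had no replicate error to be tested against. The dimmer probe gave no such difference of differences, since it was not well above background in either wild-type tissue. The averaged probes narrowed the gap (1.59 against 1.07), but the 1.07 takes in the stand-in signal of the dimmer probe in wild-type jejunum. That of Retnlg was smaller in ileum by 0.22, a value of -0.22. For S100a8 and S100a9 this difference could not be formed, because neither was measured in jejunum.

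**Figure D3:**
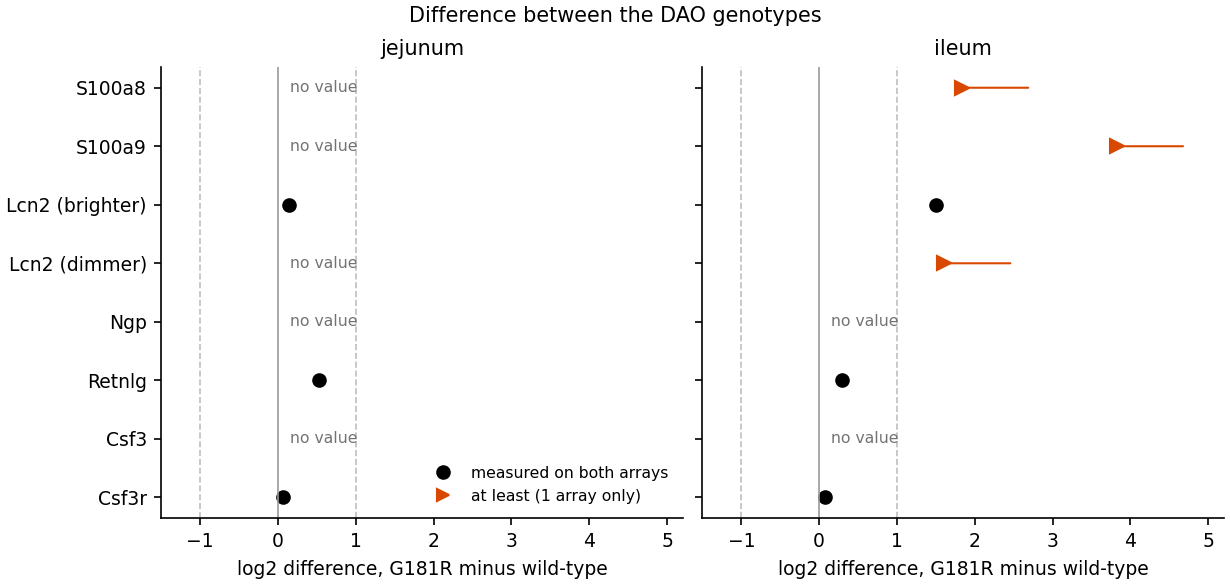
Log2 difference, G181R minus wild-type, for each probe in jejunum (left) and ileum (right); points are differences measured on both arrays, triangles with a line are lower bounds for probes well above background in G181R only, and dashed lines mark 2-fold. In ileum S100a8, S100a9 and both Lcn2 probes lie past the 2-fold line, and in jejunum none does.

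Between tissues the same 4 arrays were compared another way, so these values share arrays with those above. In wild-type mice 1 of 3 member genes was at least 2-fold lower in ileum than in jejunum (Lcn2, 2.68-fold on its brighter probe), where 10% of all genes were; 0 of 3 were at least 2-fold higher, where 8.3% were. The Lcn2 call was lost under normexp, with a log2 difference of -0.79, and the difference turned to 0.16 when its probes were averaged. The averaged value takes in a stand-in signal of the dimmer probe in wild-type jejunum. Retnlg was 1.67-fold and the Csf3r probe 1.30-fold lower in ileum. In G181R mice 2 of 5 member genes were at least 2-fold higher in ileum (S100a9 at least 15.1-fold and S100a8 at least 3.82-fold), where 7.92% of all genes were, and 0 of 5 were lower, where 9.62% were. S100a8 and S100a9 again entered only through G181R ileum. Of the members measured on both G181R arrays, 0 of 3 were higher, where 7.3% of all genes were. Under normexp the S100a8 bound between these arrays was 0.42 on the log2 scale. Retnlg was 1.95-fold lower in ileum there.

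Being seen on 1 array alone was uncommon for each of the arrays. Of the 37325 genes, 504 (1.35%) were well above background in G181R ileum alone and 502 (1.34%) in G181R jejunum alone. For wild-type ileum alone the number was 336 (0.9%), for wild-type jejunum alone 276 (0.739%), and 12783 (34.2%) were on no array. S100a9 had the highest processed signal of the 504, and the named genes that followed were Nlrp10 with 68.5, Ccdc85a with 47.3, Ntn5 with 44.1 and Potegl with 43.1. S100a8 was number 21 in this order. The order is one of probe brightness and not of transcript amount.

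For the genes seen on all 4 arrays, the named genes with the most similar pattern over the 4 levels were sought among 13946 genes. The measure was the root mean square distance after each gene's mean was subtracted. Lcn2, by its brighter probe, was closest to Sirpb1b (0.0595), Hif1a (0.115), Reg3a (0.160), Reg3d (0.164) and Tnfaip8l3 (0.165). The dimmer Lcn2 probe was not used here. Its signal was lowest in wild-type jejunum (1.75, against 6.91 in wild-type ileum), and neither signal was well above background. Reg3a, a secreted lectin of the intestinal epithelium, had log2 levels of 6.62 and 6.54 in wild-type and G181R jejunum and 5.07 and 6.91 in wild-type and G181R ileum. Like the brighter Lcn2 probe, Reg3a was thus lowest in wild-type ileum. Hif1a, a transcription factor of the response to low oxygen, had 3.27 and 3.57 in jejunum and 2.17 and 3.55 in ileum, in the same order. Retnlg was closest to Marchf1, Rmi1, Slc17a5, Lrig2 and Cep162 (0.0477 to 0.0659). The Csf3r probe, which varied little, was closest to Bcap31, Dnph1, Mcu, Gdi2 and Pdss1 (0.00345 to 0.0111). With 4 points each, these are descriptions of 4 arrays.

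The 250 bases before the transcription start are shown for the 3 genes that were higher in G181R ileum, since S100a8, S100a9 and Lcn2 differed there together. They are from the RefSeq promoter table (GRCm38.p6), which matched 6 of the 7 genes, and are read along the gene's strand. Capitals mark matches on either strand to C/EBP (TTNNGNAA), to NF-kB (GGGNNNNNCC) and to the box written TATAAA, and no matches overlap.
S100a8, chr3:90668821-90669070, plus strand: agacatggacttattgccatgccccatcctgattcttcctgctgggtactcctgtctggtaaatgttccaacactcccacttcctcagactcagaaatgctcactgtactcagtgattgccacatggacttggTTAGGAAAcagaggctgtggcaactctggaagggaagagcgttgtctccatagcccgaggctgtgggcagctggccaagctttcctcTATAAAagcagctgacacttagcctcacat
S100a9, chr3:90695722-90695971, minus strand: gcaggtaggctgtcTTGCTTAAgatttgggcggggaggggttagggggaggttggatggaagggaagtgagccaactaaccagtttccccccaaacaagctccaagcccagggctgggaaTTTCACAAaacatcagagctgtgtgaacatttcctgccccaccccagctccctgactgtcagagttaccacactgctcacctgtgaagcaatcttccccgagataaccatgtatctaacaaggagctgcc
Lcn2, chr2:32387740-32387989, minus strand: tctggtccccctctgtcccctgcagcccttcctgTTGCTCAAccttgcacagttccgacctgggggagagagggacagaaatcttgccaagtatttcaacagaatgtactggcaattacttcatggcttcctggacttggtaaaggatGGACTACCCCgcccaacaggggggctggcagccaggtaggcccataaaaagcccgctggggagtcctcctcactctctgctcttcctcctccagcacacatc

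Each of the 3 windows held at least 1 C/EBP match, starting 117 bases before the start of S100a8, 236 and 130 bases before that of S100a9 and 216 bases before that of Lcn2. Such a match was present in 36.8% of the 32851 promoter windows of this length. It was also present in members that were not 2-fold higher in G181R ileum. Ngp held C/EBP matches 138, 102 and 11 bases before its start and Retnlg held 1 at 246 bases, while Csf3r held 0. Lcn2 also held an NF-kB match 102 bases before its start (45.8% of windows), and S100a8 a TATAAA match 30 bases before its start (12.4%). No window of the 3 held the STAT motif TTCNNNGAA, found in 7.02% of windows. A match describes the letters of a window and not binding.

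Some other markers of neutrophils were also higher in G181R ileum, and others were not. Of 20 neutrophil-defining genes, 12 were measured on both ileum arrays, with a median log2 difference of 0.14 between genotypes; 2 were at least 2-fold higher in G181R and 0 lower. Of all genes measured there, 2% were at least 2-fold higher and 3.21% lower. The higher ones were Ly6g, the surface marker of mouse neutrophils, and Ltf, the granule protein lactoferrin. Ly6g read 81.6 and 91.9 in wild-type and G181R jejunum and 53.4 and 183 in wild-type and G181R ileum, a log2 difference of 1.86 in ileum. Ltf read 31.6 and 59.1 in jejunum and 38.9 and 134 in ileum, again 1.86, and both genes were brightest in G181R ileum. Of the others, Stfa2l1, a cystatin of neutrophils, was lower by a log2 difference of -0.96. The granule enzymes Mpo and Elane and the cathelicidin Camp, named after their values were seen, differed by -0.06, -0.03 and -0.26 in ileum. Prtn3, Ctsg, Padi4 and Trem3 were not well above background on any array, and Cxcr2 was not on either ileum array. The signals of those of the 20 genes that were well above background on at least 1 array were summed. The sums were 2.46 times the array's 75th percentile in wild-type and 3.87 in G181R ileum, and 4.12 and 4.28 in jejunum. Without Ly6g and Ltf the sums in ileum were 1.96 and 2.06. In jejunum 0 of 12 measured genes were at least 2-fold apart, and the median was 0.05.

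Of 23 granule and cytoplasm proteins, 16 were measured in ileum with a median of -0.02; 1 (Ltf) was at least 2-fold higher, and Chil3, a chitinase-like protein of myeloid cells, was lower by a bound of -1.75. Of 21 surface receptors of neutrophils, 15 were measured in ileum, and 13 of these had a difference above 0, as did 53.2% of all measured genes, with a median of 0.52; 1 (Ly6g) was at least 2-fold higher. The next largest were Ptafr, the receptor for platelet-activating factor, with 0.81, and Il1r2, a decoy receptor for interleukin 1, with 0.79. In jejunum the receptor median was 0.01 over 14 genes. The median over all measured genes was 0.03 in ileum and -0.01 in jejunum.

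Between genotypes, chemoattractants of neutrophils gave the largest bounds of the 19 lists. Cxcl5 and Cxcl1 are chemokines that act on the neutrophil receptor Cxcr2. Cxcl5 read 7.81 and 11.2 in wild-type and G181R jejunum and 1.77 and 182 in wild-type and G181R ileum. It was at least 26.6-fold higher in G181R ileum. Cxcl1 read 8.39 and 25.9 in jejunum and 7.25 and 119 in ileum, and was well above background on both G181R arrays and on neither wild-type array. It was at least 17.3-fold higher in G181R ileum and at least 3.02-fold in G181R jejunum. Cxcl3 had a bound of 1.51 in ileum on the log2 scale, and Saa3, an acute-phase protein, was 1.99 higher in ileum and 1.02 in jejunum. Of the 15 genes of this list on the array, 7 were measured in each tissue, with medians of -0.04 in ileum and -0.10 in jejunum.

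Csf3 was at background, and the wider family of colony-stimulating factors was looked at beside it. Of 19 such factors other than G-CSF, their receptors and genes of their signalling, 16 were measured in ileum with a median of 0.31 and 17 in jejunum with a median of 0.05. Socs3, a feedback inhibitor of cytokine receptors that use STAT3, was the only one at least 2-fold higher. It read 1782 and 6284 in wild-type and G181R jejunum and 2761 and 12320 in ileum, log2 differences of 1.78 and 2.24. Csf2, which encodes GM-CSF, read 144 and 170 in jejunum and was not well above background in ileum.

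Of the 13 cytokine genes upstream of G-CSF and lipocalin 2 on the array, 6 were well above background nowhere, Il17a and Il23a among them. Il22, a cytokine that acts on epithelium, read 5.99 and 8.99 in wild-type and G181R jejunum and 7.27 and 36.9 in ileum, a bound of 2.42 in ileum. Nfkbiz, a nuclear regulator of NF-kB target genes that include Lcn2, was 1.14 higher in ileum and 0.37 in jejunum. Il6 was seen in wild-type jejunum alone, where it read 16.8, and had a bound of -1.56 between the jejunum genotypes.

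Among the 15 other S100 genes, 11 were measured in ileum, and S100g, a vitamin D-dependent calcium-binding protein of enterocytes, was the only one past 2-fold, lower by -1.79. S100z differed by -0.55 in ileum, and S100a5, S100a7a and S100b were well above background nowhere. Of 6 receptors and adaptors of calprotectin, 0 were 2-fold apart in either tissue, with a median of 0.17 in ileum. In the resistin family, Retnlb, made by goblet cells, was 1.77 higher in G181R jejunum and 2.27 higher in G181R ileum, with signals of 31.4 and 109 in jejunum and 908 and 4162 in ileum, whereas Retnla and Retn differed by -0.99 and -0.82 in ileum. Among partners of lipocalin 2 in iron withholding, Hamp, which encodes hepcidin, had a bound of 2.53 in ileum, and Slc22a17, a receptor for lipocalin 2, differed by -0.90. Of the 9 cathelicidin and cystatin relatives of Ngp on the array, 0 were measured 2-fold apart between genotypes.

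Markers of other cells also moved between the ileum arrays. Of 15 monocyte and macrophage markers, 13 were measured, 11 of them above 0 (53.2% of all measured genes were), with a median of 0.28. Their signals summed to 445 times the 75th percentile in wild-type and 488 in G181R, and to 14.5 and 18.5 without Lyz2, Itgam and Ly6c2. Ly6c2, a marker of inflammatory monocytes, read 958 and 4340 in ileum (a log2 difference of 2.26) and 578 and 502 in jejunum. Ccr2, a monocyte marker of the same list, was well above background in G181R ileum alone. It read 6.91 there, with a bound of only 0.02 between the ileum genotypes. Cd14 and Mrc1 differed by 0.68 and 0.64. Of 10 smooth muscle markers 9 were measured on both ileum arrays, and 6 were at least 2-fold lower in G181R, with a median of -1.93, led by Synm at -2.98. Of all genes measured there, 3.21% were at least 2-fold lower. Their summed signals were 68.5 and 66.7 in jejunum and 89.0 and 49.1 in ileum. The median of the 10 epithelial markers was -0.05 in ileum and 0.01 in jejunum. The part of these shifts in the values of S100a8, S100a9 and Lcn2 was not tested. The markers Itgam and Trem1 and the receptor gene Ly96 are read by probes with recurrent runs of bases like that of Csf3r. The most shared run of each was found around the start of 197, 59 and 197 other genes.

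**Figure D4:**
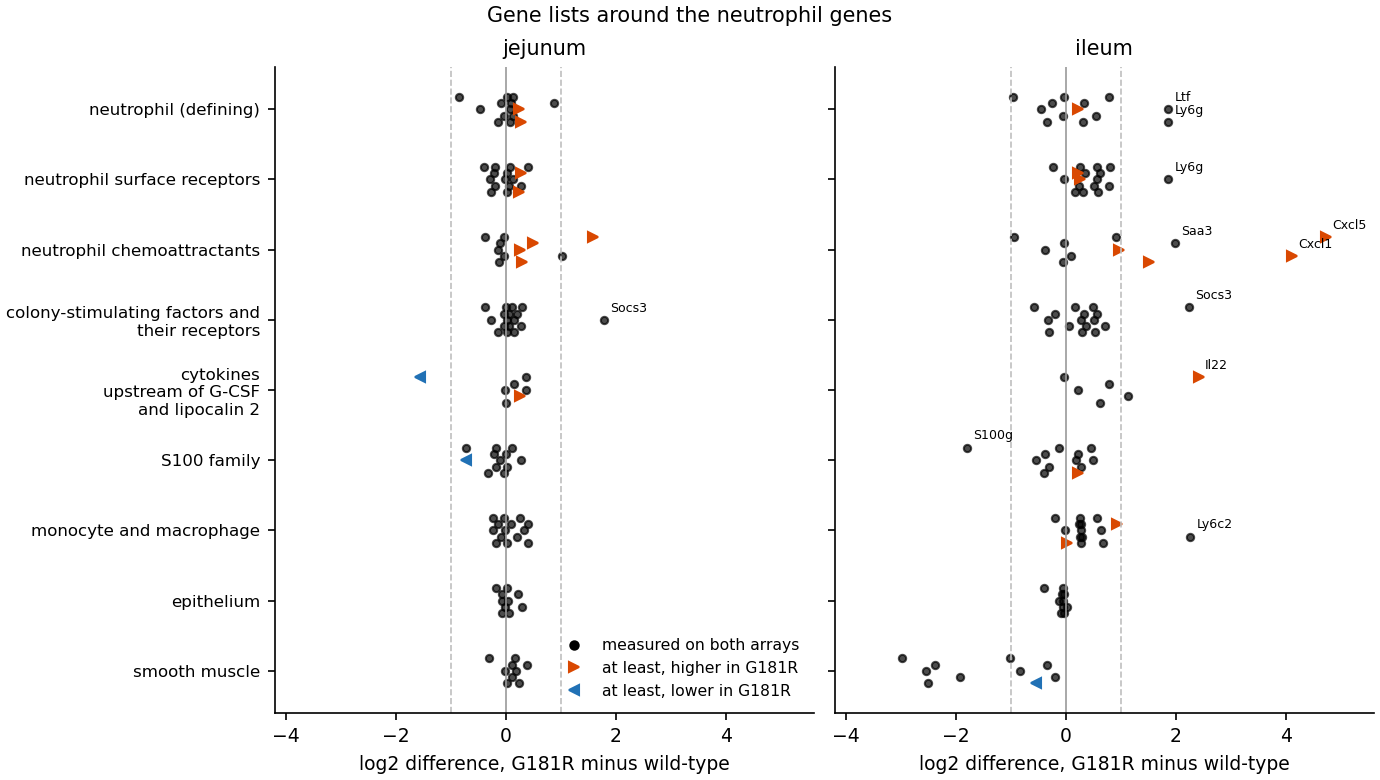
Log2 difference, G181R minus wild-type, in jejunum (left) and ileum (right) for the genes of 9 lists; black points are measured on both arrays, triangles are bounds for genes well above background on 1 array, dashed lines mark 2-fold, and labels name genes past 1.7 outside the smooth muscle list. In ileum the chemoattractants Cxcl5 and Cxcl1 lie farthest to the right and the smooth muscle genes farthest to the left, while the epithelial markers lie near 0.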

How the data were processed

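The deposited scanner files, read as 1-colour (Cy3) arrays, give each spot's processed signal as an intensity. Per the file headers it was made with Agilent Feature Extraction 11.5.1.1: background was subtracted, trends across the array and in signal size were taken out, and arrays were not scaled to each other. Beside it the files give each spot's signal error, mean signal and local background as intensities, and other deposited values used here are flags per spot, for signal well above background, saturation, outliers and stand-in values. The deposited value table was not used. Outlier spots were dropped and spots of a probe averaged. The log2 signal was set relative to the 75th percentile of its array (control probes aside), with no pseudocount. Of the probes, 32994 were named through their accession in the RefSeq table of GRCm38.p6 and 23611 kept the array's name. The brightest probe stood for a gene. A gene was measured where well above background on both arrays. Where it was on 1 array only, the difference is a bound, against the higher of its own dim signal and the lowest signal well above background there. A fold of 2 was called.

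The members and the 19 lists (201 genes) were chosen with earlier results of these data known. All member probes were named, plus up to 3 genes of each list by size of difference, the list's undetected defining markers, and the 5 most similar genes. The run length of 14 bases was chosen after seeing the data. The number of arrays limits the precision. Alternatives were normexp (limma 3.58.1 in R 4.3.3, offset 50), quantile scaling, a percentile over detected probes and keeping outlier spots. Others were probe averaging, 2 other detection rules, a higher floor, and folds of 1.5 and 4. The steps ran in Python 3.11.15 with pandas 2.3.3 and were checked on simulated data.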

Additional observations from a re-analysis of the deposited data

How the results depend on the processing

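No paired analysis was possible because each group was 1 array of pooled RNA and the labels carry no replicate numbers. Of 128 recomputed differences of member genes, 103 stayed within the median SD of dim replicate spots, 24 moved by more and 1 reversed. Many could not move. Each member probe was 1 spot, so keeping outlier spots changed no member value. The detection rules and the floor could alter bounds alone, and probe averaging Lcn2 alone. The dim SD is also wide for the bright Csf3r probe. Its difference between wild-type tissues went from -0.38 to -0.2 under quantile scaling and was counted as unmoved. The reversal was Lcn2 between wild-type tissues, turned to 0.16 by averaging its probes. Averaging gave 1.07 between genotypes in jejunum, so that 1 member was higher there and 0 were lower between wild-type tissues. Both averages take in a stand-in signal. Under normexp the members at least 2-fold higher in G181R ileum numbered 1 (S100a9) and not 3, those higher in ileum among G181R mice 1 and not 2, and those lower in ileum among wild-type mice 0 and not 1. Without a detection filter, or with the weaker flag for a positive signal, Ngp counted as lower in G181R jejunum (-1.10), making 1 member lower there, and S100a8 and S100a9 stood at 4.11 and 5.94 in ileum. These values are set against stand-in or near-background signals and are no measured differences under the main rule. Under the weaker flag those of Ngp and S100a9 are bounds, while S100a8 passed that flag on both ileum arrays. At a fold of 4, 1 member remained higher in G181R ileum, 1 higher in ileum among G181R mice and 0 lower in ileum among wild-type mice; at 1.5, 2 members were lower in ileum among wild-type and 1 among G181R mice. Of 80 recomputed counts of members, 68 stayed within 1.5 times. The highest floor tried gave S100a8 1.62 and S100a9 3.61 in ileum. Genes measured on both arrays and at least 2-fold higher and lower in G181R numbered 163 and 160 in jejunum and 432 and 693 in ileum; normexp gave 60 and 33, and 41.9% of the first ileum count and 215, and no filter gave 1175 and 1664, and 1519 and 2017. Between tissues they numbered 1549 and 1902 in wild-type and 1578 and 1887 in G181R mice; normexp gave 786 and 1018, and 771 and 977, and no filter 2974 and 4058, and 2954 and 3963. The weaker flag gave 573 and 772 in jejunum and 985 and 1357 in ileum between genotypes, and 2907 and 2927 lower genes between tissues. Other folds gave 724 and 872 (1.5) or 18 and 9 (4) in jejunum and 1468 and 1871 or 71 and 86 in ileum between genotypes, and 3309 and 4176 or 333 and 480 in wild-type and 3489 and 4029 or 350 and 487 in G181R mice between tissues. The cause of these changes was not tested. Signals under 100, which include every member but Csf3r, limit all folds here, and the gene lists were computed under the main settings alone.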

Other observations

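B cell markers, which none of the comparisons above used, differed more between tissues than between genotypes. Of 8 markers, 6 were measured on both wild-type arrays and 7 on both G181R arrays. In each case 6 were at least 2-fold higher in ileum, with medians of 1.65 and 3.11 on the log2 scale. Of all measured genes 7.42% and 7.3% were. Between genotypes, 3 of 6 were at least 2-fold lower in G181R jejunum (median -0.97), where 0.749% of all measured genes were. In ileum 0 of 7 passed 2-fold (median 0.77), where 2% of all measured genes were higher and 3.21% lower. The summed signals of the markers well above background on at least 1 array, which leaves out Blk, were 1.94 and 1.07 times the 75th percentile in wild-type and G181R jejunum. In ileum they were 6.41 and 10.9. Red cell markers had medians of -0.46 in jejunum and -0.70 in ileum between genotypes over 4 measured genes, while Slc4a1, the anion exchanger of red cells, had a bound of 1.29 in the other direction in ileum. Eosinophil and mast cell markers had medians of 0.07 and -0.03 in ileum, with 0 genes measured 2-fold apart, and squamous epithelium markers 0.22.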
